A study of Homo sapiens with 6 samples.

Results

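The 41 genes described here encode parts of the Wnt signalling pathway, and all were chosen by name, with earlier results of these data known. They comprise ligands and the proteins that secrete them, receptors and coreceptors, the R-spondin receptors, surface and secreted modulators, the cytoplasmic relay and the nuclear factors. Of the 41, 40 were among the 18030 genes in the deposited table. RSPO3 was not analysed here. Each member's gene identifier was matched to its symbol and its transcripts were summed. The set was proposed as Wnt pathway and liver progenitor genes, but its members are Wnt pathway genes, so progenitor genes are given from a separate list. LGR5, AXIN2, DKK1, SP5, NKD1, NOTUM, RNF43 and ZNRF3 are also widely used as readouts of the pathway.

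Wnt proteins are lipid-modified ligands that bind a Frizzled receptor together with LRP5 or LRP6. Without ligand, a complex of AXIN, APC and GSK3B marks β-catenin (CTNNB1) for degradation, and receptor engagement recruits Dishevelled and stops this, so that β-catenin reaches TCF/LEF factors on DNA. In liver the pathway is known for setting the gene programme of hepatocytes around the central vein, and in hepatocellular carcinoma CTNNB1 and AXIN1 are recurrently mutated.

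The study sequenced mRNA from Huh-7 cells, a human hepatocellular carcinoma line. In the oeALKBH5 group the genotype is given as ALKBH5 overexpression, in the control group as WT, and both groups carry the treatment label Untreated. ALKBH5 is an enzyme that takes the methyl group off N6-methyladenosine in RNA. Overexpression was transient, from a plasmid introduced by electroporation with 3 pulses of 1250 V and 20 ms, and RNA was taken 60 h afterwards. The labels do not name the promoter of the plasmid, and carry the electroporation text for both groups while the design calls the control cells parental. Whether the controls were pulsed or received an empty plasmid is therefore not given, and ALKBH5 and any effect of the transfection itself cannot be told apart. Each group had 3 libraries, labelled as biological replicates with no statement of separate cultures, so p-values measure only the spread between these libraries, which may be technical.

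The libraries held 18607084 to 18826479 estimated counts in oeALKBH5 cells and 19265686 to 19378030 in control cells. ALKBH5 itself had 168.8, 133 and 110 CPM (counts scaled to library size) in oeALKBH5 cells, against 70.5, 74.2 and 75.5 CPM in control cells. All 3 oeALKBH5 libraries lay above the controls, library 1 highest, with a log2 fold change of 0.90 ± 0.18 (SE, adjusted p = 0.0154, edgeR). Without control library 2 or control library 3 the adjusted p was 0.0529 and 0.059, in a range over the alternatives of 3.37e-10 to 0.059. The fit covered 14168 genes and called those with an adjusted p under 0.05, of which 2948 had more RNA in oeALKBH5 cells and 3114 had less. Scaling by library size alone gave 4266 higher and 2047 lower, with the median gene shifted by 0.09 on the log2 scale. Of 12 hepatocyte markers 11 were lower and none higher in oeALKBH5 cells, with summed levels of 9055 to 9811 FPKM (fragments scaled to transcript length and library size) in oeALKBH5 cells and 13730 to 14000 FPKM in control cells. Leukocyte markers summed to 244 to 268 FPKM in oeALKBH5 cells and 222 to 229 FPKM in control cells, nearly all from LYZ and CD68, and none of the 5 tested was called by edgeR. LYZ was the 1 with an unadjusted p under 0.05 (0.039), and DESeq2, library size alone and leaving out oeALKBH5 library 1 each called 1 marker higher. PTPRC, which defines leukocytes, had 1.13 FPKM in oeALKBH5 cells and 1.26 FPKM in control cells, and CD3E was under 0.1 FPKM in both. Endothelial markers summed to 3.08 to 3.28 FPKM in oeALKBH5 cells and 4.62 to 5.52 FPKM in control cells, nearly all from PECAM1, the only one tested, which was lower (log2 fold change −0.70 ± 0.09, SE), while VWF, KDR and LYVE1 were under 0.1 FPKM in both. Of 7 cholangiocyte markers tested, 2 were higher (SPP1 and SOX9) and 3 were lower, EPCAM and KRT19 among them. Their median log2 fold change was −0.27, and they summed to 206 to 224 FPKM in oeALKBH5 cells and 264.7 to 265.7 FPKM in control cells. Fibroblast markers summed to 7.40 to 7.81 FPKM in oeALKBH5 cells and 6.06 to 6.43 FPKM in control cells. Of 6 tested, 2 were higher and 1 lower, with a median log2 fold change of 0.002. None was lower without oeALKBH5 library 2 or control library 1. The part of these marker shifts in the results was not tested. In such bulk RNA, fewer cells of one kind and less RNA per cell cannot be told apart.

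Of the 40 members measured, 39 had enough counts to be tested. LGR6, an R-spondin receptor, did not, with 0, 0.104 and 0.104 CPM in oeALKBH5 cells and no count in any control library. In the edgeR quasi-likelihood fit 14 members were higher in oeALKBH5 cells, 5 were lower and 20 were not called, so that 48.7% of the tested members were called, against 42.8% of all genes. By direction, 35.9% of members were higher, against 20.8% of all genes, and 12.8% were lower, against 22% of all genes. Because the members were chosen with earlier results of these data known, no test was made over the set. The median log2 fold change was 0.09 over the members and 0.01 over all genes. In 17 members every oeALKBH5 library lay above every control library, and in 7 every one lay below. Among all genes 52.8% did one or the other, 25.8% above and 27% below. Of the 39 tested, 6 were called and changed by at least 0.5 on the log2 scale (15.4%), against 9.61% of all genes. These 6 were FZD2, AXIN2, LGR5, DKK1 and FZD8, all higher, and GPC3, which was lower.

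**Figure D1:**
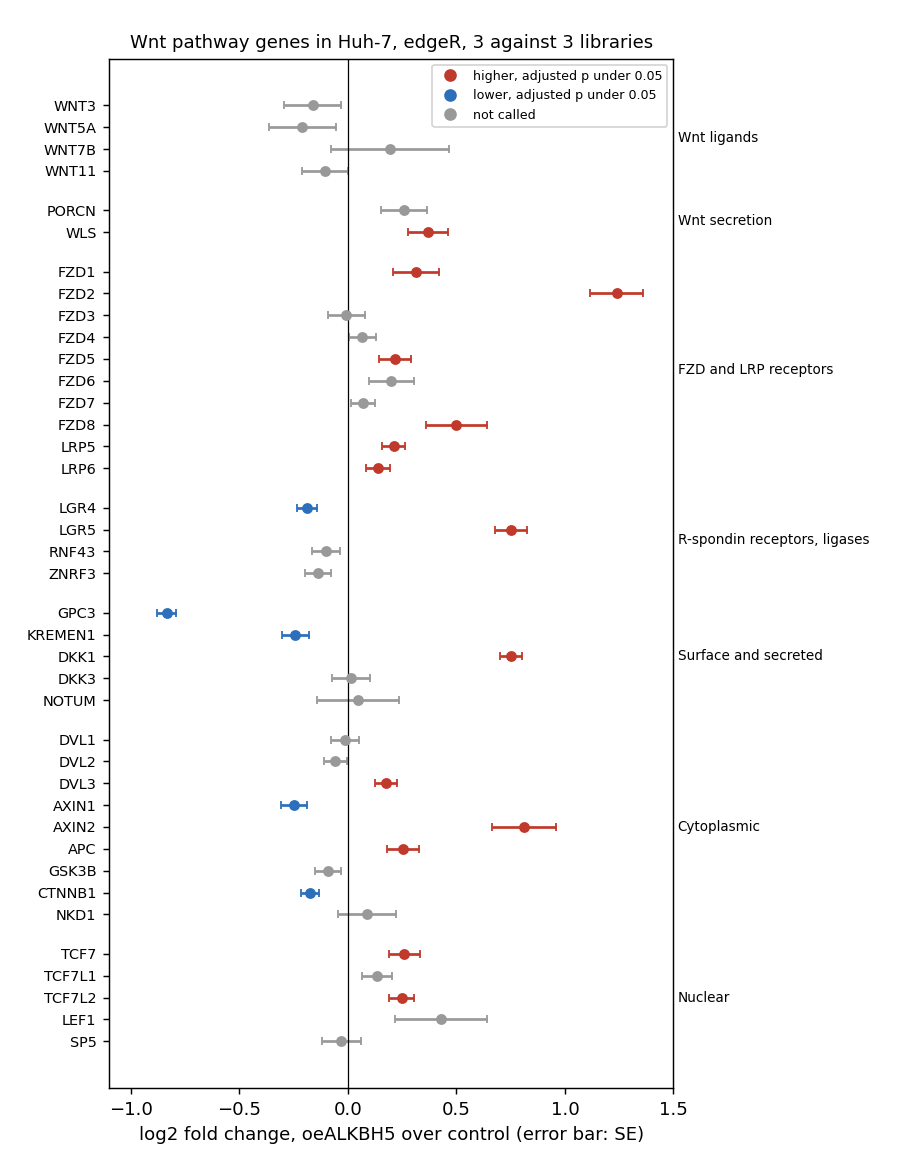
Log2 fold change of each tested member in oeALKBH5 over control cells (horizontal axis), grouped by role, with bars for the standard error. FZD2 stands furthest right at 1.24 and GPC3 furthest left at −0.84, while most members lie within 0.5 of zero.

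The test on values scaled per length made fewer lower calls. On log2(FPKM + 1), tested with limma, 35 members could be tested, of which 17 were higher and 2, GPC3 and AXIN1, were lower. Of all genes on that scale 45.9% were called, 29.4% higher and 16.5% lower. FZD6, PORCN and TCF7L1 were called higher on this scale but not on counts with the main scaling, and CTNNB1, KREMEN1 and LGR4, lower on counts, were not called. The FPKM values shift the median gene by 0.06 on the log2 scale, so the lower calls of these 3 members, all smaller than 0.25, are read here relative to the count scaling. With library size alone, 18 members were higher and 4 lower.

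Ligand genes were weakly expressed and none was called. WNT3 and WNT11 were the best measured. WNT3 had 5.35, 5.14 and 5.95 CPM in oeALKBH5 cells, against 6.29, 6.92 and 5.2 CPM in control cells, with overlap between the groups and a log2 fold change of −0.16 ± 0.13 (SE). WNT11 had 7.07, 6.80 and 7.10 CPM in oeALKBH5 cells, against 7.42, 7.5 and 7.64 CPM in control cells, a log2 fold change of −0.11 ± 0.11 (SE) that was not called although every oeALKBH5 library lay below every control. WNT5A, which signals mainly without β-catenin, had a log2 fold change of −0.21 ± 0.15 (SE), and WNT7B one of 0.20 ± 0.27 (SE) at about 1 CPM. In both, libraries of the groups overlapped.

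WLS, the carrier that brings lipidated Wnt to the cell surface, was higher in oeALKBH5 cells. It had 12.2, 13.4 and 12.5 CPM in oeALKBH5 cells, against 10.3, 10.1 and 9.13 CPM in control cells. The groups did not overlap, and the log2 fold change was 0.37 ± 0.09 (SE, adjusted p = 0.00325). PORCN, the acyltransferase that attaches the lipid, had 8.58, 8.41 and 8.35 CPM in oeALKBH5 cells, against 6.88, 6.60 and 7.70 CPM in control cells. Its libraries did not overlap either, but the log2 fold change of 0.26 ± 0.11 (SE) had an adjusted p of 0.0574. Per length it was 4.68 FPKM in oeALKBH5 cells and 3.74 FPKM in control cells and passed the limma test (adjusted p = 0.00835).

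Receptors were the group with most higher calls: of 10 tested, 6 were higher in oeALKBH5 cells, none was lower and 4 were not called. Over all genes 20.8% were higher and 22% lower. The 8 Frizzled genes encode seven-pass receptors that bind Wnt directly, and 4 of them (FZD1, FZD2, FZD5 and FZD8) were higher. FZD2, a gene with 1 exon at chr17:44557459-44559570 (GRCh38, plus strand), had the largest fold change of all members. It had 9.67, 9.03 and 9.44 CPM in oeALKBH5 cells, against 4.25, 4.28 and 3.40 CPM in control cells, from 174 to 186 counts per oeALKBH5 library and 64 to 81 per control library. Each oeALKBH5 value was more than any control value by a wide margin, at 2.36-fold (log2 fold change 1.24 ± 0.12, SE, adjusted p = 1.21e-07).

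FZD8, at chr10:35638249-35642278 (GRCh38, minus strand), had 6.50, 6.43 and 5.06 CPM in oeALKBH5 cells, against 4.51, 3.75 and 4.46 CPM in control cells. The libraries did not overlap and the log2 fold change was 0.50 ± 0.14 (SE, adjusted p = 0.00739). FZD5 had 117, 98.5 and 91.9 CPM in oeALKBH5 cells, against 86.2, 90.8 and 87.4 CPM in control cells. Library 1 of oeALKBH5 was highest, and the log2 fold change was 0.22 ± 0.07 (SE, adjusted p = 0.0295) with it and 0.11 (adjusted p = 0.0646) without it. The FZD5 call was also lost without control library 1 (adjusted p = 0.109) or control library 3 (adjusted p = 0.0845), in a range over the alternatives of 0.000867 to 0.109.

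FZD1 had 12.4, 13.5 and 13.2 CPM in oeALKBH5 cells, against 12.1, 8.71 and 10.6 CPM in control cells. Control library 1 came close to the oeALKBH5 values and control library 2 was lowest. The log2 fold change was 0.31 ± 0.11 (SE, adjusted p = 0.0222). The call did not hold with DESeq2 (adjusted p = 0.0609), without oeALKBH5 library 2 (0.0766), without control library 2 (0.172) or without control library 3 (0.0522), and over the alternatives the adjusted p ran from 0.00557 to 0.172.

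The other Frizzled genes were not called. FZD7 had 63.6, 58.4 and 58.3 CPM in oeALKBH5 cells, against 55.7, 57.9 and 58.3 CPM in control cells, and FZD4 had 38.3, 40.5 and 40.9 CPM in oeALKBH5 cells, against 39.9, 35.4 and 39.1 CPM in control cells. The log2 fold change of each was 0.07. FZD4 overlapped between groups, while the lowest oeALKBH5 and the highest control value of FZD7 were nearly equal. FZD4 shares 1399 exonic bases with PRSS23 on the opposite strand in GENCODE 29, so its counts may hold reads of that gene. FZD6 had 10.8, 9.71 and 9.24 CPM in oeALKBH5 cells, against 8.01, 9.45 and 8.39 CPM in control cells, a log2 fold change of 0.20 ± 0.11 (SE, adjusted p = 0.132). FZD3 had a log2 fold change of −0.01 and was the one Frizzled gene without a positive value; its sign turned under upper quartile scaling and library size alone.

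The coreceptors LRP5 and LRP6, which pair with Frizzled and are phosphorylated when Wnt binds, were both higher. LRP5 had 478, 411 and 421 CPM in oeALKBH5 cells, against 389.6, 372 and 370.5 CPM in control cells. The groups did not overlap, and the log2 fold change was 0.21 ± 0.05 (SE, adjusted p = 0.0033). LRP6 had 82.5, 75.7 and 73.3 CPM in oeALKBH5 cells, against 67.7, 71.9 and 70.7 CPM in control cells. It was the weakest call among the members, at a log2 fold change of 0.14 ± 0.05 (SE, adjusted p = 0.0462). That call was lost with DESeq2 (adjusted p = 0.0831), with no filter (0.0564), without oeALKBH5 library 1 (0.169) or 2 (0.0695) and without control library 1 (0.175), 2 (0.0728) or 3 (0.103), in a range over the alternatives of 0.00394 to 0.175.

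**Figure D2:**
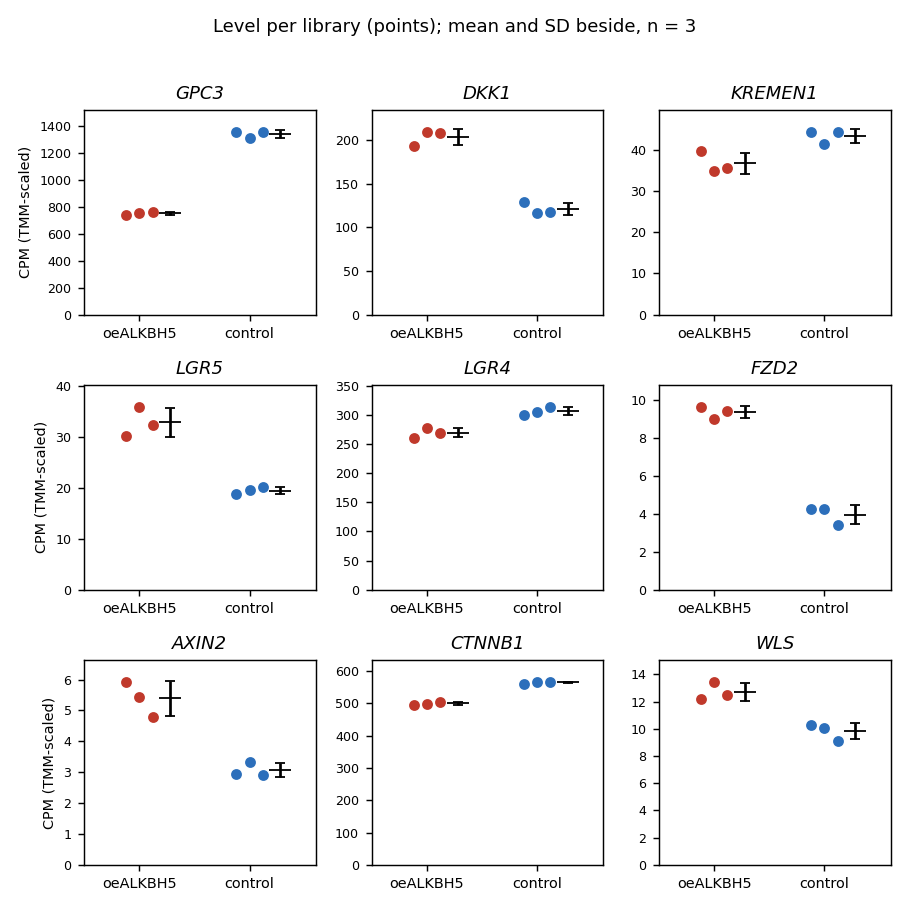
CPM in each library (vertical axes, linear from zero) for 9 called members, oeALKBH5 libraries left of control libraries, with the mean and SD beside the points. The oeALKBH5 points of FZD2, DKK1, LGR5 and AXIN2 lie above, and those of GPC3 below, every control point.

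The genes of the R-spondin axis did not move together. R-spondins are secreted proteins that bind LGR receptors and keep the ubiquitin ligases RNF43 and ZNRF3 from removing Frizzled. LGR5, a marker of Wnt-responsive stem cells that lies at chr12:71439770-71586310 (GRCh38, plus strand), had 30.2, 35.9 and 32.3 CPM in oeALKBH5 cells, against 18.9, 19.5 and 20.1 CPM in control cells. Every oeALKBH5 library was well above the controls, at 1.69-fold (log2 fold change 0.75 ± 0.07, SE, adjusted p = 1.17e-07). LGR4, its more broadly expressed relative at chr11:27365961-27472775 (GRCh38, minus strand), had 261, 277 and 269.5 CPM in oeALKBH5 cells, against 300.2, 306 and 314 CPM in control cells. It was lower in each oeALKBH5 library, with a log2 fold change of −0.19 ± 0.04 (SE, adjusted p = 0.00203).

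Per length, LGR4 remained the more abundant of the pair, but by less in oeALKBH5 cells. Its FPKM was 6.73 to 7.54 times that of LGR5 in oeALKBH5 libraries and 13.7 to 13.8 times in control libraries. On the FPKM scale the LGR4 difference was −0.11 and was not called (adjusted p = 0.0726).

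RNF43 had 32.6, 35.6 and 36.9 CPM in oeALKBH5 cells, against 39.5, 36.2 and 37.0 CPM in control cells, with overlap and no call (log2 fold change −0.10 ± 0.06, SE). Of its 7505 exonic bases, 4469 overlap other coding genes, SUPT4H1 among them, so its counts are uncertain. ZNRF3 had 35.2, 37.4 and 37.7 CPM in oeALKBH5 cells, against 41.5, 38.3 and 41.5 CPM in control cells. All its oeALKBH5 libraries were below the controls, but the log2 fold change of −0.14 ± 0.06 (SE) was not called (adjusted p = 0.0711). Both genes are themselves induced by Wnt signalling in many tissues, and neither was called higher here.

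DKK1, a secreted antagonist that binds LRP5 and LRP6 and is itself a β-catenin target, was one of the clearest changes. It lies at chr10:52314296-52318042 (GRCh38, plus strand) and had 193, 209.7 and 208 CPM in oeALKBH5 cells, against 129, 117 and 118 CPM in control cells. The groups were far apart, at 1.68-fold (log2 fold change 0.75 ± 0.05, SE, adjusted p = 6.26e-10). SP5, a repressor in the Sp1 family that is a direct β-catenin target in many cell types, had 11.2, 11.2 and 11.4 CPM in oeALKBH5 cells, against 11.1, 12.1 and 11.2 CPM in control cells. Its log2 fold change was −0.03 ± 0.09 (SE), and the groups overlapped.

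The stretches before the starts of DKK1 and SP5 are shown for their copies of CTTTGA, 1 form of the core of the TCF/LEF motif. Other forms were not searched. Of the 26 members with a RefSeq promoter entry, they were the 2 that held more than 1 copy. DKK1 was called higher while SP5 was not called. Both are the 250 bases before the RefSeq start (GRCh38.p14), plus strand, at chr10:52314031-52314280 for DKK1 and chr2:170715087-170715336 for SP5, and capitals mark CTTTGA or its reverse complement TCAAAG.
DKK1: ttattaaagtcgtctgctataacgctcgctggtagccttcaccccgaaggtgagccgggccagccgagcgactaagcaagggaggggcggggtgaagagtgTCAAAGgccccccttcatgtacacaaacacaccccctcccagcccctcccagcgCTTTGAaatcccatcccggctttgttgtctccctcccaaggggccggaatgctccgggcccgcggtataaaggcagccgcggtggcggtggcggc
SP5: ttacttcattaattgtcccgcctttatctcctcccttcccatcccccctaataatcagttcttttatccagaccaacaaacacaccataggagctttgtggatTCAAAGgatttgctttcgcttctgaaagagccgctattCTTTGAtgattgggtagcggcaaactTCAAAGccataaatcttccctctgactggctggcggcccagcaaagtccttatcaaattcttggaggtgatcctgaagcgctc
DKK1 held 2 copies, 149 and 95 bases before the start. SP5 held 3, at 147, 109 and 83 bases. Both strands were searched in each of 35116 RefSeq promoter windows of this length, of which 11.2% held at least 1 copy, 0.977% at least 2 and 0.0655% at least 3. The third member with a copy, PORCN, held 1. A match of letters is a description of the sequence only.

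GPC3, a heparan sulfate proteoglycan anchored at the cell surface and a well-known antigen of hepatocellular carcinoma, was the most abundant member and the strongest decrease. It lies at chrX:133535745-133985895 (GRCh38, minus strand). It had 739, 749.6 and 762 CPM in oeALKBH5 cells, against 1353, 1307 and 1356 CPM in control cells, from 14215 to 14603 counts per oeALKBH5 library and 24767 to 25538 per control library. All oeALKBH5 libraries were far below the controls, at a log2 fold change of −0.84 ± 0.04 (SE, adjusted p = 7.99e-12). Per length it was 349 ± 3.90 FPKM in oeALKBH5 cells and 590.0 ± 8.96 FPKM in control cells (SD, n = 3 each), and the limma test on that scale called it as well (adjusted p = 1.21e-07). AFP, another antigen of fetal liver and liver cancer that is not a member, was lower too. It is among the 12 hepatocyte markers, of which 11 were lower.

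KREMEN1, a receptor that joins DKK1 to remove LRP6 from the surface, was lower. It had 39.7, 35.03 and 35.7 CPM in oeALKBH5 cells, against 44.5, 41.5 and 44.5 CPM in control cells. The groups did not overlap, and the log2 fold change was −0.24 ± 0.06 (SE, adjusted p = 0.004), while the FPKM test did not call it (adjusted p = 0.135). DKK3, a divergent relative of DKK1, had a log2 fold change of 0.02 ± 0.09 (SE), and NOTUM, an enzyme that strips the lipid from Wnt, one of 0.05 ± 0.19 (SE) at about 3 CPM. Neither was called, and the signs of both changed when single libraries were left out.

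In the cytoplasm, 3 of 9 tested members were higher, 2 were lower and 4 were not called, beside 20.8% higher and 22% lower over all genes. Both directions occurred within the destruction complex. AXIN2, the scaffold that β-catenin itself induces, had 5.92, 5.45 and 4.80 CPM in oeALKBH5 cells, against 2.96, 3.33 and 2.92 CPM in control cells. The groups did not overlap, at 1.76-fold (log2 fold change 0.81 ± 0.15, SE, adjusted p = 0.000169), from only 92 to 114 counts per oeALKBH5 library and 55 to 63 per control library. It lies at chr17:65528563-65561647 (GRCh38, minus strand), where 1316 of its 5226 exonic bases are shared with AC004805.1 on the same strand, so part of its counts may come from that gene. AXIN1, the constitutive scaffold, moved the other way.

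AXIN1 had 38.2, 34.2 and 34.1 CPM in oeALKBH5 cells, against 43.0, 41.5 and 42.0 CPM in control cells. It was below the controls in every oeALKBH5 library, with a log2 fold change of −0.25 ± 0.06 (SE, adjusted p = 0.0028), and was called lower on the FPKM scale too (adjusted p = 0.0251). Per length AXIN1 stayed the more abundant AXIN, at 11.3 FPKM in oeALKBH5 cells and 13.03 FPKM in control cells, while AXIN2 had 1.30 FPKM in oeALKBH5 cells and 0.717 FPKM in control cells.

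APC, the tumour suppressor that holds the complex together, was higher, with 22.2, 20.9 and 20.3 CPM in oeALKBH5 cells, against 17.5, 18.2 and 17.5 CPM in control cells. The libraries did not overlap and the log2 fold change was 0.25 ± 0.07 (SE, adjusted p = 0.00841). GSK3B, the kinase that phosphorylates β-catenin, had 74.7, 68.1 and 64.5 CPM in oeALKBH5 cells, against 69.8, 76.8 and 74.3 CPM in control cells. It was not called with all libraries, but without oeALKBH5 library 1, its highest, it was lower at an adjusted p of 0.0207.

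CTNNB1, which encodes β-catenin and lies at chr3:41194741-41260096 (GRCh38, plus strand), had 496, 498 and 505 CPM in oeALKBH5 cells, against 561, 565 and 566 CPM in control cells. The spread within each group was very small and the groups did not overlap, with a log2 fold change of −0.17 ± 0.04 (SE, adjusted p = 0.00221). The call was lost with scaling by library size alone, at −0.10 (adjusted p = 0.0537, range over the alternatives 7.85e-05 to 0.0537), and on the FPKM scale (adjusted p = 0.0626). These are RNA levels, and β-catenin is regulated chiefly as a protein, which was not measured.

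Of the Dishevelled genes, which carry the signal from Frizzled, DVL3 was higher and the other two were not called. DVL3 had 166, 154 and 148 CPM in oeALKBH5 cells, against 141, 138 and 135 CPM in control cells, without overlap (log2 fold change 0.18 ± 0.05, SE, adjusted p = 0.00724). DVL1 and DVL2 had log2 fold changes of −0.01 ± 0.07 and −0.06 ± 0.05 (SE), with overlap between the groups. Per length, DVL2 was the higher of DVL2 and DVL3 in every control library, at 29.02 to 31.6 FPKM beside 25.7 to 26.4 FPKM for DVL3, whereas in oeALKBH5 libraries DVL3 spanned 29.5 to 33.4 FPKM and DVL2 29.7 to 30.9 FPKM. NKD1, a Dishevelled-binding inhibitor and common β-catenin target, had 4.63, 5.19 and 5.11 CPM in oeALKBH5 cells, against 5.05, 4.22 and 4.78 CPM in control cells. Its groups overlapped, and the log2 fold change of 0.09 ± 0.13 (SE) was not called.

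The nuclear factors that bind DNA for β-catenin were unevenly changed. TCF7L2, the family member best known for its role in metabolism, had 65.4, 61.0 and 58.0 CPM in oeALKBH5 cells, against 54.8, 49.9 and 50.6 CPM in control cells. The groups did not overlap, and the log2 fold change was 0.25 ± 0.06 (SE, adjusted p = 0.00204). TCF7 had 30.5, 34.1 and 31.0 CPM in oeALKBH5 cells, against 28.3, 27.0 and 24.5 CPM in control cells, with a log2 fold change of 0.26 ± 0.07 (SE, adjusted p = 0.00575). Its groups did not overlap either, but without control library 3, the lowest, the adjusted p was 0.0557, and 210 of its exonic bases lie opposite SKP1.

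TCF7L1, which mostly represses, had 27.2, 26.1 and 24.0 CPM in oeALKBH5 cells, against 24.5, 22.7 and 23.2 CPM in control cells, and was not called on counts (log2 fold change 0.13 ± 0.07, SE, adjusted p = 0.136). Without oeALKBH5 library 3, its lowest, it passed (adjusted p = 0.0458). LEF1 was nearly silent, with 1.92, 1.87 and 2.30 CPM in oeALKBH5 cells, against 1.504, 1.64 and 1.38 CPM in control cells. All its oeALKBH5 libraries were above the controls, but its log2 fold change of 0.43 ± 0.21 (SE) was not called (adjusted p = 0.111).

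Per length, which allows levels of different genes to be set side by side, the members spanned a wide range: 34 had at least 1 FPKM in control cells, 12 at least 10, and 6 were under 1. GPC3 led in both groups, followed by CTNNB1 at 157 FPKM in oeALKBH5 cells and 167 FPKM in control cells. The next places differed. DKK1 had 113, 124 and 121 FPKM in oeALKBH5 cells, above the 101, 89.3 and 87.3 FPKM of LRP5 there, while in control cells DKK1 had 70.8, 65.2 and 65.1 FPKM, below the 76.9, 74.7 and 74.3 FPKM of LRP5. LGR4 followed at 53.3 FPKM in oeALKBH5 cells and 57.4 FPKM in control cells. The ligands were low, with WNT11 highest at 3.84 FPKM in oeALKBH5 cells and 3.91 FPKM in control cells.

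**Figure D3:**
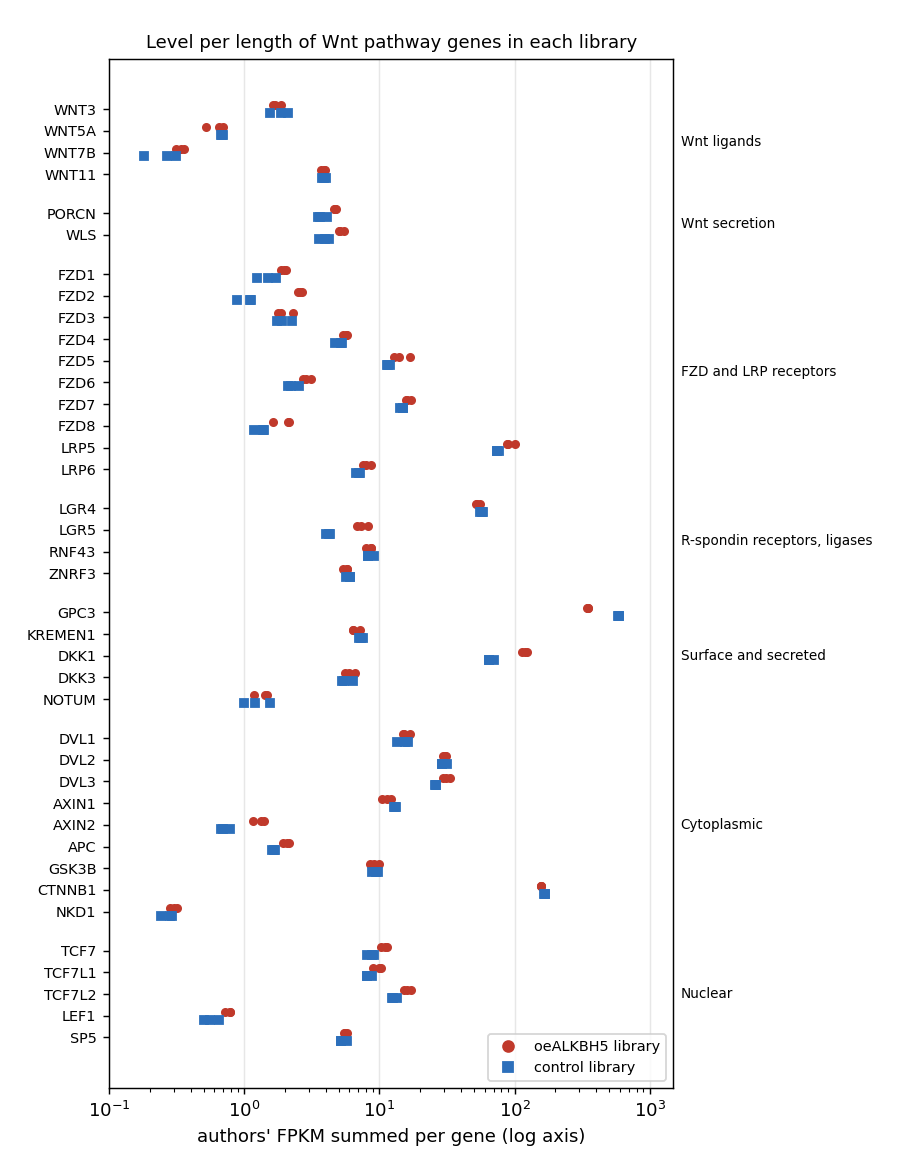
FPKM of the tested members in each library (log axis), oeALKBH5 libraries as circles above control libraries as squares. GPC3 is highest in both groups at 349 and 590.0 FPKM, and DKK1 lies above LRP5 in oeALKBH5 cells and below it in control cells.

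Within families, the summed FPKM of the Frizzled, Dishevelled and TCF/LEF genes lay higher in every oeALKBH5 library than in any control library. The FPKM values shift the median gene by 0.06 on the log2 scale, and these sums were not tested. The 8 Frizzled genes summed to 44.8 to 51.4 FPKM in oeALKBH5 libraries and 39.3 to 39.6 FPKM in control libraries. FZD5 and FZD7 together made up 63.5% to 66.1% of that in oeALKBH5 libraries and 64.9% to 67.9% in control libraries, and the share of FZD2 was 5.42% in oeALKBH5 cells and 2.63% in control cells. The 4 TCF/LEF genes summed to 35.9 to 38.3 FPKM in oeALKBH5 libraries and 29.3 to 31.9 FPKM in control libraries, and TCF7L2 made up 43.0% in oeALKBH5 cells and 42.2% in control cells. The 3 Dishevelled genes summed to 75.7 to 80.03 FPKM in oeALKBH5 libraries and 68.3 to 74.2 FPKM in control libraries, a narrow gap. On counts DVL1 and DVL2 overlapped between the groups, at log2 fold changes of −0.01 and −0.06. The Dishevelled separation is therefore read relative to the FPKM scaling. LRP5 exceeded LRP6 by 11.1 to 11.6 times in oeALKBH5 libraries and 10.4 to 11.5 times in control libraries.

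The deposited table also gives each transcript, and 116 of the members' 176 transcripts could be tested, of which 2 were called, against 1.01% of all 45502 transcripts tested. At an unadjusted p under 0.05 there were 14 (12.1%), against 10.7% of all transcripts tested. The 2 called were the single transcript of DKK1 and the main transcript of GPC3, NM_004484.4, which made up 97.8% ± 0.45 of GPC3 in oeALKBH5 cells and 97.3% ± 0.20 in control cells (SD, n = 3 each). Of 31 members with several transcripts, 19 had a leading transcript whose share varied by more than 20 percentage points within a group, so most isoform shares were not resolved. Among those chosen after their values were seen, KREMEN1 transcript NM_001039570.3 had 37.4%, 31.1% and 27.2% of its gene in oeALKBH5 cells, against 52.4%, 46.2% and 51.3% in control cells, without overlap, but its transcript-level change was not called (adjusted p = 0.141).

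The rest of the pathway was read from lists of genes that are not members. The counts called in these and the later lists stand beside 20.8% of all genes higher and 22% lower. Only 4 of 19 other ligand genes could be tested, and WNT5B was lower (log2 fold change −0.75 ± 0.24, SE, adjusted p = 0.0167). That call was lost without oeALKBH5 library 1 or 2 or control library 1, in a range over the alternatives of 0.0149 to 0.0977. Of 8 other receptors tested, 2 were higher and 2 lower with the main scaling, and 3 were higher and none lower with library size alone. The higher 2 were glypicans, GPC1 at 2.76 ± 0.45 CPM in oeALKBH5 cells and 0.995 ± 0.31 CPM in control cells (SD, n = 3 each) and GPC4 at 2.32 ± 0.44 CPM in oeALKBH5 cells and 0.904 ± 0.085 CPM in control cells (SD, n = 3 each). Their log2 fold changes were 1.47 ± 0.24 and 1.35 ± 0.24 (SE, adjusted p = 6.41e-05 and 0.000138). GPC6, another glypican, had 89.6 CPM in oeALKBH5 cells and 89.7 CPM in control cells and was not called. The lower 2, ROR1 and ATP6AP2, had log2 fold changes of −0.66 and −0.14 and lost their calls without oeALKBH5 library 1 or 2 or control library 1 or 2, ATP6AP2 also without control library 3, with adjusted p reaching 0.172 and 0.365.

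Secreted inhibitors other than the members gave 3 higher and 1 lower of 10 tested, and 1 higher without control library 2 or 3. DRAXIN, APCDD1 and KREMEN2 were higher at log2 fold changes of 0.88, 1.08 and 0.79, each under 3 CPM and each losing its call when 1 or more single libraries were left out, the adjusted p reaching 0.0506, 0.11 and 0.128. SERPINF1 was lower at 159.5 ± 8.13 CPM in oeALKBH5 cells, against 213 ± 8.82 CPM in control cells (SD, n = 3 each, log2 fold change −0.42, adjusted p = 1.41e-06). Of 24 other regulators tested, mostly cytoplasmic, 3 were higher and 5 lower, or 5 higher and 3 lower with library size alone. Without oeALKBH5 library 3, 5 were higher. FRAT1 and FRAT2, which bind GSK3 and keep it from AXIN, were both lower, at log2 fold changes of −0.43 ± 0.07 and −0.27 ± 0.05 (SE). PPP2R5A, a phosphatase subunit, was lower by −0.38 ± 0.06 (SE). The membrane protein TMEM237, and CSNK1G2 and CSNK1D, were higher by 0.25 or less. CSNK1D lost its call without control library 2 or 3 (adjusted p up to 0.112).

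Nuclear cofactors gave 10 higher and 2 lower of 24 tested, with a median log2 fold change of 0.11 beside 0.01 over all genes, and 17 higher and 1 lower with library size alone. Without control library 3, 4 were higher and 1 was lower. TLE1, a Groucho corepressor of TCF factors, had 141 ± 5.63 CPM in oeALKBH5 cells and 107 ± 5.07 CPM in control cells (SD, n = 3 each). Its log2 fold change was 0.39 ± 0.05 (SE, adjusted p = 3.62e-06). CTBP2, another corepressor, was higher by 0.50 ± 0.10 (SE) and BCL9L, a β-catenin coactivator, by 0.23 ± 0.06 (SE). Also among the 10 higher were the corepressors TLE3, TLE4 and CTBP1, the coactivators PYGO1, CREBBP and EP300, and CHD8. All of these but TLE4 lost their calls without control library 3. CTNNBIP1, an inhibitor that blocks β-catenin from TCF, was lower by −0.24 ± 0.06 (SE), as was HDAC1 by −0.13 ± 0.04 (SE), whose adjusted p reached 0.388 over the alternatives.

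Planar polarity and calcium branch genes gave 9 higher and 4 lower of 24 tested. CELSR1, a cadherin of planar polarity, NFATC1, a calcium-regulated transcription factor, and PLCB1, a phospholipase, were higher by 0.36 ± 0.05, 0.69 ± 0.12 and 0.27 ± 0.05 on the log2 scale (SE). The effectors RHOA, PRKCA and MAPK9 were lower by −0.39 ± 0.04, −0.36 ± 0.06 and −0.32 ± 0.05 (SE). The median log2 fold change of the list was 0.014, beside 0.0062 over all genes.

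**Figure D4:**
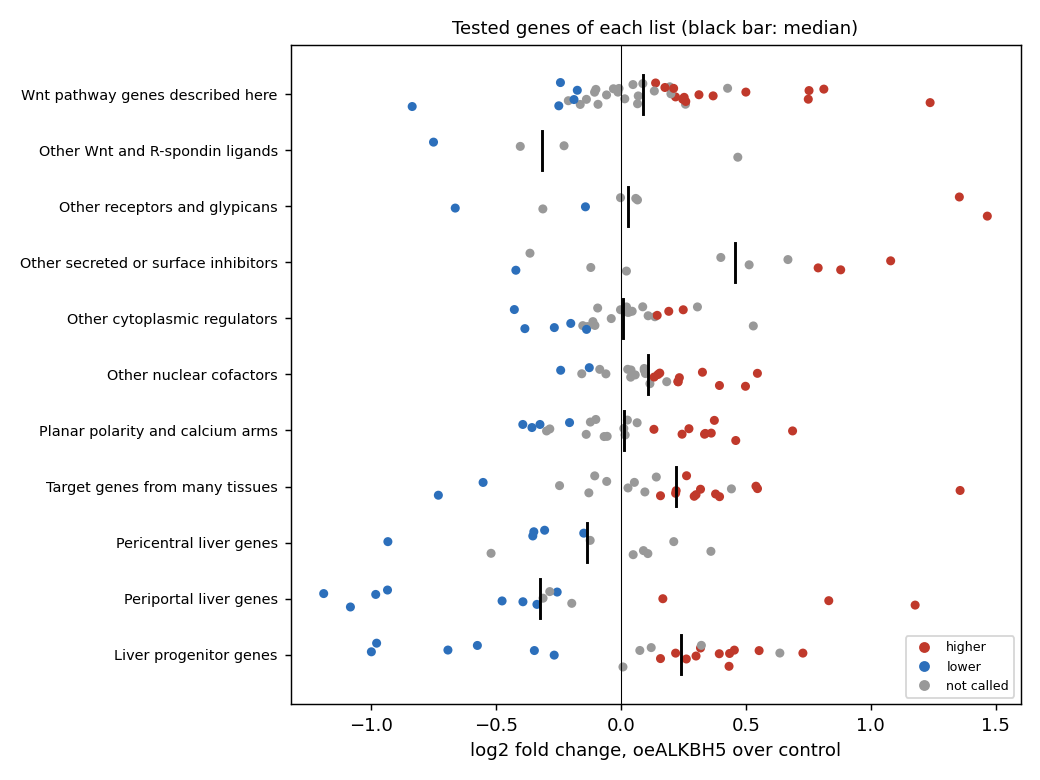
Log2 fold change of every tested gene in the members and the other lists (horizontal axis), 1 row per list, with called genes in colour and a black bar at each median. Called genes lie on both sides of zero in every list plotted except the other ligands and the pericentral genes, where none lies right of zero.

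Known targets of the pathway were read in separate lists for other tissues and for liver. SOX9, SOX4, CD24 and CD44 are in both the general target list and the progenitor list below, so those lists share genes. Of 23 general Wnt targets tested, drawn mostly from studies of other tissues, 12 were higher and 2 lower, with a median log2 fold change of 0.22 beside 0.01 over all genes. Without oeALKBH5 library 1, 4 were lower. Whether Wnt signalling sets the genes of this list in Huh-7 cells was not tested. The 3 higher genes with the smallest p were NEDD9, TROAP and VEGFA. NEDD9, a scaffold of focal adhesions, had 38.6 ± 5.2 CPM in oeALKBH5 cells and 15.1 ± 1.49 CPM in control cells (SD, n = 3 each, log2 fold change 1.36 ± 0.10, SE, adjusted p = 3.39e-08). The log2 fold change was 0.55 ± 0.05 for TROAP and 0.38 ± 0.05 for VEGFA (SE). PPARD and EPHB2 were lower, at −0.55 ± 0.06 and −0.73 ± 0.09 (SE). Outside the naming rule, MYC was higher at 0.29 ± 0.06 (SE), while CCND1 had a log2 fold change of 0.03 ± 0.04 (SE) and was not called.

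Of 12 tested genes of the pericentral zone, where Wnt is active in normal liver, none was higher and 5 were lower, or 2 higher and 4 lower with library size alone, and 1 was higher without oeALKBH5 library 1 or 3. Their median log2 fold change was −0.14. OAT, GLUL and CYP27A1 had the smallest p. GLUL, the glutamine synthetase that marks cells at the central vein, had 276, 295 and 321 CPM in oeALKBH5 cells, against 370.0, 364 and 369 CPM in control cells, without overlap (log2 fold change −0.31 ± 0.05, SE, adjusted p = 7.48e-05). OAT, ornithine aminotransferase, had 50.1 ± 4.67 CPM in oeALKBH5 cells and 95.7 ± 4.10 CPM in control cells (SD, n = 3 each, log2 fold change −0.93 ± 0.06, SE, adjusted p = 6.15e-10).

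Periportal genes, many of which Wnt signalling keeps low in normal liver, gave 3 higher and 8 lower of 14 tested, with a median of −0.32. AGXT, CPS1 and ASS1 were lower at −1.08 ± 0.08, −0.93 ± 0.12 and −0.48 ± 0.05 (SE), and HAL, ARG1 and SLC7A2 were higher at 1.18 ± 0.09, 0.83 ± 0.13 and 0.17 ± 0.04 (SE). These values stand beside 11 of 12 hepatocyte markers lower, with a median log2 fold change of −0.43, and the part of that shift in the zonal values was not tested.

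Liver progenitor genes changed in both directions. Of 22 tested, 11 were higher and 6 lower, with a median of 0.24, beside 20.8% higher and 22% lower over all genes. SPP1, SOX9, EPCAM and KRT19 are also cholangiocyte markers, and AFP is also a hepatocyte marker. SPP1, a secreted phosphoprotein of ductular cells, had 57.4 ± 2.33 CPM in oeALKBH5 cells and 39.1 ± 1.33 CPM in control cells (SD, n = 3 each, log2 fold change 0.55 ± 0.06, SE), TNFRSF12A was higher by 0.44 ± 0.06 and CLDN6 by 0.39 ± 0.06 (SE). EPCAM, the surface marker most used to isolate progenitor-like liver cancer cells, had 74.7, 68.9 and 76.5 CPM in oeALKBH5 cells, against 142, 146 and 146 CPM in control cells, with no overlap (log2 fold change −0.98 ± 0.05, SE, adjusted p = 8.51e-12). AFP was lower by −0.69 ± 0.05 and BEX1 by −0.999 ± 0.09 (SE). LGR5, the member most often read as a progenitor marker, was among the higher genes, and EPCAM and AFP were among the lower ones.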

How the data were processed

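Gene expression was measured by mRNA sequencing in 3 oeALKBH5 and 3 control libraries of Huh-7 cells. The authors deposited, for each library, estimated counts and FPKM per RefSeq transcript, as the file headers give them. The tools named are RSEM 1.2.8, Bowtie2 2.2.5 and HISAT2 2.1.0, with the build GRCh38.p13, per the submitters' processing notes. The role of each, and whether counting used strand, is not given in the sources used here. FPKM deposited by the authors were summed over each gene's transcripts.

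Estimated counts were summed per gene identifier and rounded, over 18030 genes, of which 17881 matched a symbol. The other 149 held 0.0264% of counts. The members and lists were chosen with earlier results of these data known. Genes were filtered with filterByExpr at a minimum count of 10, scaled by TMM and tested by group in edgeR 4.0.16 (R 4.3.3) with the robust quasi-likelihood test and Benjamini-Hochberg adjustment over 14168 genes, calling an adjusted p under 0.05. The FPKM test used limma 3.58.1 on log2(FPKM + 1), for genes with at least 1 FPKM in 3 libraries, where folds of low genes are understated. CPM use the effective library sizes. Alternatives were other scalings and filters, DESeq2 1.42.0, limma-voom, a replicate block, a threshold of 0.01 and leaving out each library. The fits were tested on simulated data. No 2 libraries of a group agreed within sampling noise. Called members were named with every library's value, and up to 3 higher and 3 lower genes by smallest p from each other list. Overlaps and gene positions come from GENCODE 29 (GRCh38), and promoters from RefSeq (GRCh38.p14).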

Additional observations from a re-analysis of the deposited data

How the results depend on the processing

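Over the count-based alternatives, 582 of the members' values kept direction and side of the threshold, 19 no longer passed, 7 newly passed and 16 changed sign, all of the last in members that were not called. Members called ran from 15 to 20 when single libraries were left out, with 10 to 15 higher and 5 to 6 lower, and genes called ran from 4878 to 6353 (2313 to 3067 higher, 2565 to 3286 lower). With library size alone 2047 genes were lower. ALKBH5 ran from 0.73 to 1.04 on the log2 scale without single libraries and did not pass at an adjusted p under 0.01 (0.90). Replicate numbers did not pair the libraries: the correlations of same-numbered deviations were −0.0193, 0.0162 and −0.0123. With the number as a block, 14 members were higher and 5 lower, and ALKBH5 was at 0.89 (adjusted p = 0.0538). By FPKM, GPC3 NM_004484.4 held 97.25% in oeALKBH5 cells and 96.81% in control cells. The sign changes were small, and their cause was not tested. With upper quartile scaling the log2 fold change was 0.011 for FZD3 and 0.0071 for DVL1. With library size alone it was 0.072 for FZD3, 0.068 for DVL1, 0.022 for DVL2 and 0.049 for SP5. Without single libraries it ran from −0.065 to 0.060 for FZD3, −0.029 to 0.086 for DKK3, −0.090 to 0.23 for NOTUM, −0.075 to 0.042 for DVL1 and −0.054 to 0.011 for SP5. Depth limits the weakly expressed members: the SE was 0.27 for WNT7B and 0.04 for GPC3.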

Other observations

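ALKBH5 itself differed among the oeALKBH5 libraries, at 168.8, 133 and 110 CPM in libraries 1, 2 and 3. In 14 of the 39 tested members (35.9%) the 3 oeALKBH5 libraries stood in the same order, against 22.1% of all tested genes, and in 7 (17.9%) in the reverse order, against 22.2%. Those in the same order included FZD5, FZD8, LRP6, DVL3, AXIN2, APC and TCF7L2, which were higher than control, and AXIN1, which was lower. The rest of them, FZD3, FZD6, FZD7, PORCN, GSK3B and TCF7L1, were not called. Those in the reverse order included GPC3 and CTNNB1, both lower than control. The other higher members, FZD2, LGR5, DKK1, WLS, FZD1, LRP5 and TCF7, stood in neither order. LGR4 and KREMEN1, which were lower, did not either. With 3 libraries in the order no test was made.

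Gene length differed between the directions over all genes, with a median principal transcript of 3974 bases for higher genes, 2438 bases for lower genes and 3144 bases for all tested genes. Among members the medians were 4435 bases for the 14 higher, 4735 bases for the 5 lower and 3802 bases for all 39 tested. A median over 5 lower members cannot show whether the split is absent. Tested members had a longer median than all tested genes, and the part of length in their higher calls was not tested.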
